A study of Homo sapiens with 6 samples.

Results

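The genes described here encode the enzymes that build and modify heparan sulfate chains. They are XYLT1, XYLT2, EXT1, EXT2, NDST1, NDST2, GLCE, HS2ST1, HS6ST1 and HS6ST2, taken by gene symbol from a list of 10. Of these, 9 had a row among the 30403 genes of the deposited count table and all 9 passed the filter on low counts, among 16040 genes tested. NDST2 was not analysed here. RNA came from HK-2 cells, an established and immortalised line of human proximal tubule epithelium, transfected with a plasmid for a short hairpin RNA against PARP1 (shPARP1, 3 libraries) or with a control hairpin plasmid (shCtrl, 3 libraries). Both groups were harvested 48 h after transfection by lipofection, with no other treatment named in the labels. The labels give 1 PARP1 hairpin group without the hairpin's sequence, and do not state whether the replicates were grown as separate cultures. The replicate spread behind each p-value may thus be technical.

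Heparan sulfate is a long sugar chain attached to core proteins such as syndecans, glypicans and perlecan, and it binds growth factors and matrix proteins at the cell surface and in basement membranes. Its synthesis in the Golgi starts with a xylose placed on a serine of the core protein, goes on through a short linker and then alternates glucuronic acid with N-acetylglucosamine. The growing chain is N-deacetylated and N-sulfated, part of its glucuronic acid is turned into iduronic acid, and sulfate is added at further positions. In the kidney such chains are part of the glomerular and tubular basement membranes.

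The promoters of 4 members are shown as examples, because the title of the series concerns genes that PARP1 binds. Of these, NDST1, HS6ST1 and XYLT1, the last with few reads, were lower in shPARP1 cells and HS2ST1 was higher. Other members were lower too, such as EXT2, and their windows are not printed. Each line gives the 250 bases upstream of the start annotated by RefSeq on GRCh38.p14, read 5′ to 3′ on the gene's own strand. Capitals mark the GC box, GGGCGG or its reverse complement CCGCCC, and matches that overlap each other were counted separately.
NDST1: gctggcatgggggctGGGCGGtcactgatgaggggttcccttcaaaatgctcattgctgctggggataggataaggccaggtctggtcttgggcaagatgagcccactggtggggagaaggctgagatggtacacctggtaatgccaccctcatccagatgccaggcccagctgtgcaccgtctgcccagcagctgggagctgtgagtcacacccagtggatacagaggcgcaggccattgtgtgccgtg
HS6ST1: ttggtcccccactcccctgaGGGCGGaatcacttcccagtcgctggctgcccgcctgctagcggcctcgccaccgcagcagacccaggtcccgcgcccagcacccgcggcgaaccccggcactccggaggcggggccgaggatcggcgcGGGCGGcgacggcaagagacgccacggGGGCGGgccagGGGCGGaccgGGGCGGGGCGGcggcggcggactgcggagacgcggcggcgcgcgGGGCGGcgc
XYLT1: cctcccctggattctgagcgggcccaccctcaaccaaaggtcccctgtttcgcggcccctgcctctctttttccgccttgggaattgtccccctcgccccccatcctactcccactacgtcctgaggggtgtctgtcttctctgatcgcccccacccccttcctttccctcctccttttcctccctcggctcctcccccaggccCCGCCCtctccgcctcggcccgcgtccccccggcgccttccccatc
HS2ST1: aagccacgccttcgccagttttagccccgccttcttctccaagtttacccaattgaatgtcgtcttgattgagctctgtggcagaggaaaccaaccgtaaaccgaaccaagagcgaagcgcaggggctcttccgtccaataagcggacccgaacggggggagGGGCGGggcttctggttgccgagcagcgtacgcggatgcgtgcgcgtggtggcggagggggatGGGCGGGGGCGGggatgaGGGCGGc
The NDST1 window is chr5:150497529-150497778 on the plus strand, with 1 GC box and a GC content of 60.4%. It lies inside the gene as GENCODE 29 annotates it, whose outermost start is further upstream. The HS6ST1 window is chr2:128318869-128319118 on the minus strand, with 7 GC boxes and 80.4% GC. The GC box is the textbook binding motif of the Sp/KLF family of transcription factors. XYLT1 (chr16:17470961-17471210, minus strand) had 1 GC box and 67.6% GC. HS2ST1 (chr1:86914385-86914634, plus strand) had 4 GC boxes and 63.2% GC.

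Of the 8 members with a row and a promoter used here, 7 held a GC box at one or more of their listed starts, against 46.2% of all 27305 genes in the RefSeq table, counted the same way. The window of EXT1 is not reported here. Those 27305 genes include genes that were not tested here, and the share among the 16040 tested genes was not computed. The 2 figures thus do not compare like genes. The exception was HS6ST2, whose window had a GC content of 48.0%. CCAAT, searched on both strands, was found in 2 of the 8 (GLCE and HS2ST1) and in 37.0% of all genes. The median GC content of all promoters was 58.0%, below that of each of the 4 windows printed. The GC box count of HS2ST1, the member that was higher, lay between those of NDST1 and HS6ST1. These matches describe sequence and were not compared with any binding data.

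Library totals were 29387853 to 32809303 counts in shPARP1 and 24429683 to 26269194 in shCtrl, so that 3 counts correspond to 0.0910 to 0.125 CPM, the unit of counts scaled to a common library total (TMM) used here. PARP1, the gene of the major poly(ADP-ribose) polymerase of the nucleus, had 26.9, 26.1 and 28.8 CPM in the shPARP1 libraries, against 262, 263 and 258 CPM in the shCtrl libraries. The knockdown libraries thus held 10.4% ± 0.524 (SD, n = 3) of the control mean, and all 3 matched their label. Of 18 renal epithelial and proximal tubule genes, PAX8, CDH6, GGT1, KRT8 and KRT18 each had 209 CPM (CDH6 in shPARP1 replicate 1) or more in each of the 6 libraries. PAX2, AQP1, SLC5A2 and CDH1 stayed under 4 CPM, and 6 were too low to test: ANPEP, MME, CUBN and SLC34A1, and LRP2 and SLC22A6 with 0 or 1 count, which mark mature proximal tubule cells.

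Of the 8 members that passed the filter on low counts in both groups, 7 were lower and 1 was higher in shPARP1 cells (edgeR quasi-likelihood test, Benjamini-Hochberg adjusted p under 0.05 over all tested genes). Over all tested genes 28.5% were called lower and 27.3% higher, and among genes whose mean reached 3 CPM, as it did for these 8 members, 34.4% were called lower. For 7 of the 8 no shPARP1 library reached into the CPM range of the shCtrl libraries, against a non-overlap in 60.1% of all tested genes. The non-overlap among only the genes whose mean reached 3 CPM was not computed, so these 2 figures do not compare genes of like level. The median log2 fold change was -0.59 over the 8 members and -0.01 over all tested genes. XYLT1, which passed the filter through the shCtrl libraries alone, was the ninth member tested, and with it the counts were 8 lower and 1 higher and the median -0.67. The members differed in size of change: XYLT2 kept 90.6% ± 2.56 of the control mean and NDST1 52.7% ± 2.34 (SD, n = 3). In bulk RNA, fewer cells of a type and less RNA per cell cannot be told apart.

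**Figure D1:**
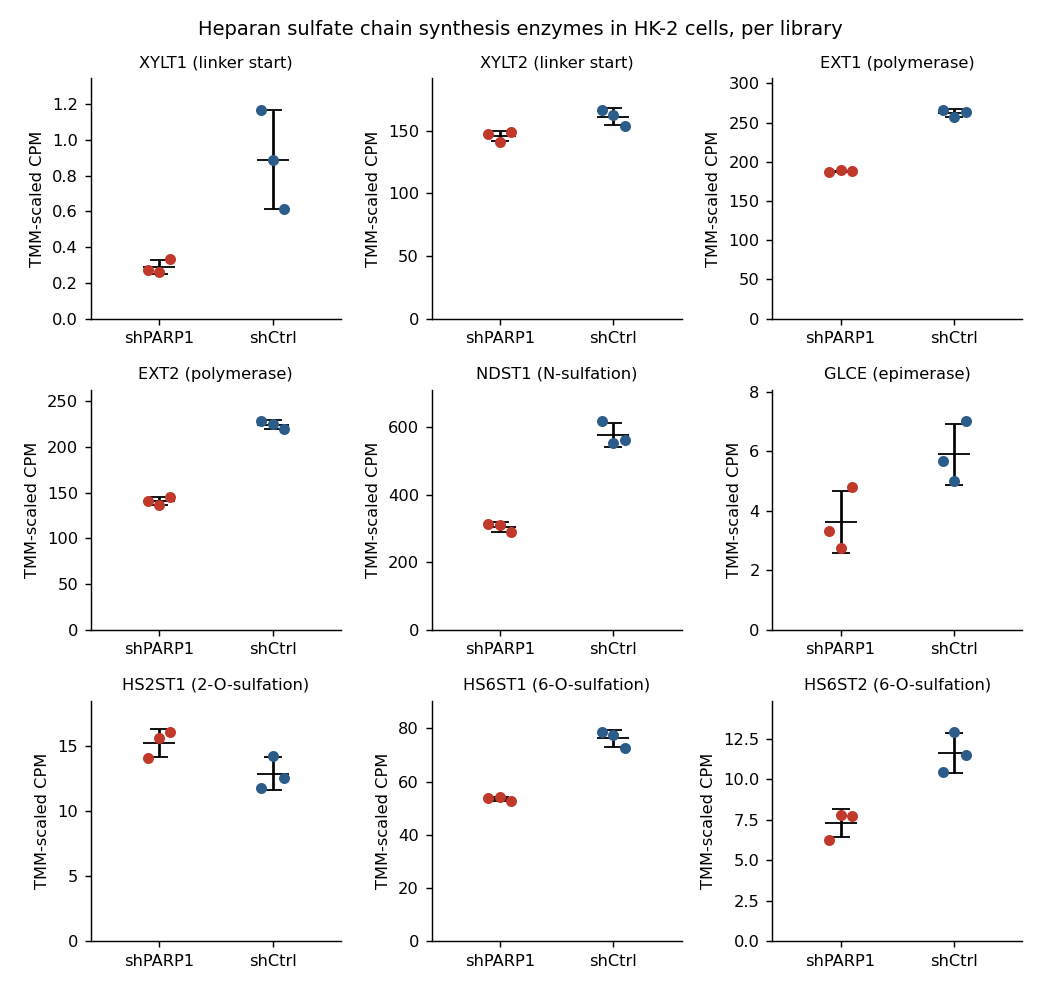
TMM-scaled CPM of the 9 measured heparan sulfate enzymes in each of the 3 shPARP1 (red) and 3 shCtrl (blue) libraries; the horizontal bar is the mean, the whiskers are the SD, and each axis starts at 0. The groups are apart for each member but HS2ST1, and for HS2ST1 the lowest shPARP1 library, at 14.0 CPM, lies below the highest shCtrl library, at 14.2 CPM.

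Markers of the labelled and of other cell types, and depth, differed between the groups too. The renal epithelial list summed to 1962 to 2010 CPM in shPARP1 and 2218 to 2260 in shCtrl, and of its 12 tested genes 8 were called lower and 2 higher, with a median log2 fold change of -0.44, -1.05 for CDH6 and 0.59 for KRT18. The summed CPM of a fibroblast and pericyte list was 10.3 to 11.2 in shPARP1 and 19.2 to 22.9 in shCtrl. Of its 8 genes 6 were measured, and PDGFRA was at 0 in all 3 shPARP1 libraries and in 1 shCtrl library. Of the 3 tested genes 2 were called lower (PDGFRB and LUM) and 1 was not called (RGS5, means of 0.580 CPM in shPARP1 and 0.403 in shCtrl). DCN and COL3A1, not tested, averaged 0.274 and 0.172 CPM in shPARP1 and 0.0919 and 0.141 in shCtrl. RGS5, DCN and COL3A1 thus had higher means in shPARP1, and for each of them the groups overlapped. An endothelial list, 4 of 7 genes measured, summed to 1.01 to 1.39 CPM in shPARP1 and 2.11 to 2.69 in shCtrl, with CDH5 at 0 in 5 of the 6 libraries. Most of this sum was TIE1, the 1 tested gene of the list, which was called lower (means of 0.875 CPM in shPARP1 and 2.10 in shCtrl). PECAM1 and VWF, not tested, averaged 0.0852 and 0.183 CPM in shPARP1 and 0.0897 and 0.227 in shCtrl. A leukocyte list, 7 of 8 genes measured, summed to 30.3 to 34.0 CPM in shPARP1 and 40.2 to 43.9 in shCtrl, with CD3E at 0 in 5 libraries. Of its 4 tested genes 2 were called lower (CD14 and CSF1R), 1 higher (CD68) and 1 was not called. The part of these lists in the members' values was not tested. With counts thinned to the smallest library total, 8 members were again called lower and 1 higher. XYLT1 is among these 8, and since it passed the main filter through the shCtrl libraries alone, its part in the count is a description.

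Xylosyltransferases place the xylose on which either heparan sulfate or chondroitin sulfate is built. XYLT2 (ENSG00000015532, chromosome 17, 50346092 to 50363138, plus strand of GRCh38) had 147, 141 and 149 CPM in shPARP1 libraries, against 167, 163 and 154 CPM in shCtrl libraries. The highest knockdown library lay just under the lowest control library. As log2 fold change the fit gave -0.14 (SE 0.04, edgeR quasi-likelihood adjusted p = 0.00173). This was the smallest change among the members, and its call was lost when length and GC content were corrected for, an alternative chosen after seeing the data (log2 fold change -0.00, edgeR adjusted p = 0.980). On the deposited FPKM scale, in which counts are divided by gene length and library total, the groups overlapped: XYLT2 had 34.6 to 36.5 FPKM in shPARP1 and 36.3 to 39.1 in shCtrl.

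XYLT1 (ENSG00000103489, chromosome 16, 17101769 to 17470881, minus strand), the paralog of XYLT2, was close to the limit of detection. Its counts were 9, 8 and 10 reads in shPARP1 libraries, against 28, 23 and 16 reads in shCtrl libraries, or 0.273, 0.259 and 0.335 CPM against 1.17, 0.885 and 0.614 CPM. All 3 knockdown libraries were below the 3 control libraries, and the controls differed among themselves more than the knockdown libraries did. The fitted log2 fold change was -1.60 (SE 0.42). Since 0 of 3 shPARP1 and 3 of 3 shCtrl libraries passed the filter's cutoff of 0.359 CPM, XYLT1 had to be lower in shPARP1 to be tested at all, so its values are a description and no p is given.

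The chain itself is polymerised by a complex of EXT1 and EXT2, glycosyltransferases that add glucuronic acid and N-acetylglucosamine and whose loss causes hereditary multiple exostoses. EXT1 (ENSG00000182197, chromosome 8) had 187, 189 and 188 CPM in shPARP1 libraries, against 266, 257 and 263 CPM in shCtrl libraries. The 3 knockdown libraries were nearly equal, at 71.7% ± 0.298 (SD, n = 3) of the control mean. On the log2 scale the fold change was -0.48 (SE 0.04, edgeR quasi-likelihood adjusted p = 7.51e-18).

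EXT2 (ENSG00000151348, chromosome 11, 44095549 to 44245429, plus strand) had 141, 137 and 146 CPM in shPARP1 libraries, against 229, 226 and 220 CPM in shCtrl libraries. The groups were far apart relative to their spread, with the highest knockdown library at 146 CPM and the lowest control library at 220 CPM. The fitted log2 fold change was -0.67 (SE 0.04, edgeR quasi-likelihood adjusted p = 7.93e-23). Both polymerase subunits fell, EXT2 to 62.9% ± 1.89 (SD, n = 3) of its control mean.

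NDST1, the bifunctional N-deacetylase and N-sulfotransferase whose product the later modifying enzymes act on, had the lowest log2 fold change among the members whose mean reached 3 CPM. NDST1 (ENSG00000070614, chromosome 5, 150485818 to 150558211, plus strand) had 314, 310 and 289 CPM in shPARP1 libraries, against 618, 552 and 561 CPM in shCtrl libraries. The highest knockdown library was far below the lowest control library, and the high shCtrl value was that of replicate 1. As log2 fold change the fit gave -0.92 (SE 0.04, edgeR quasi-likelihood adjusted p = 1.24e-25). Of all tested genes, 5.24% had a log2 fold change as low or lower. In each library NDST1 was also the member with the most reads, between 8608 and 10342 in shPARP1 and between 14351 and 14817 in shCtrl. Only 0.714% of its exon bases are shared with a gene on the opposite strand.

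GLCE encodes the C5-epimerase that turns glucuronic acid into iduronic acid in the chain. GLCE (ENSG00000138604, chromosome 15, 69160584 to 69272217, plus strand) had 3.34, 2.75 and 4.80 CPM in shPARP1 libraries, against 5.68, 5.00 and 7.03 CPM in shCtrl libraries. The groups did not overlap, but shPARP1 replicate 3 came close to shCtrl replicate 2, and replicate 3 was the highest of its group on both sides. As a log2 fold change this was -0.71 (SE 0.16, edgeR quasi-likelihood adjusted p = 0.00024). GLCE held 61.5% ± 17.8 (SD, n = 3) of the control mean, the widest spread of this percentage among the members.

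HS2ST1, the 2-O-sulfotransferase that acts mainly on the iduronic acid made by GLCE, was the member called higher. HS2ST1 (ENSG00000153936, chromosome 1, 86914648 to 87109998, plus strand) had 14.0, 15.6 and 16.1 CPM in shPARP1 libraries, against 11.8, 14.2 and 12.6 CPM in shCtrl libraries. The groups overlapped, since shPARP1 replicate 1 was below shCtrl replicate 2. On the log2 scale the fold change was 0.24 (SE 0.09, edgeR quasi-likelihood adjusted p = 0.0189), and shPARP1 libraries had 119% ± 8.26 (SD, n = 3) of the control mean. The call was lost without shPARP1 replicate 2 (adjusted p = 0.0632), shPARP1 replicate 3 (0.0859), shCtrl replicate 1 (0.114) or shCtrl replicate 3 (0.0516), each by the same test. The log2 fold change stayed between 0.18 and 0.39 in the alternatives run. Of its exon bases 9.69% are shared with a gene on the same strand, listed as RP5-1052I5.2, which had 1 read in each shPARP1 library and 1 to 3 in the shCtrl libraries.

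The 6-O-sulfotransferases add sulfate to glucosamine, a modification that fibroblast growth factor signalling depends on. HS6ST1 (ENSG00000136720, chromosome 2, 128236716 to 128318577, minus strand) had 53.8, 54.2 and 52.7 CPM in shPARP1 libraries, against 78.7, 77.4 and 72.6 CPM in shCtrl libraries. The knockdown libraries lay close together and well below the controls. The fitted log2 fold change was -0.51 (SE 0.05, edgeR quasi-likelihood adjusted p = 7.59e-14). HS6ST2 (ENSG00000171004, chromosome X, 132626016 to 132961395, minus strand), its paralog, had 6.28, 7.80 and 7.75 CPM in shPARP1 libraries, against 10.5, 12.9 and 11.5 CPM in shCtrl libraries. Its groups did not overlap either, and replicate 1 was the lowest on both sides. The log2 fold change of HS6ST2 was -0.68 (SE 0.11, edgeR quasi-likelihood adjusted p = 2.71e-07).

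**Figure D2:**
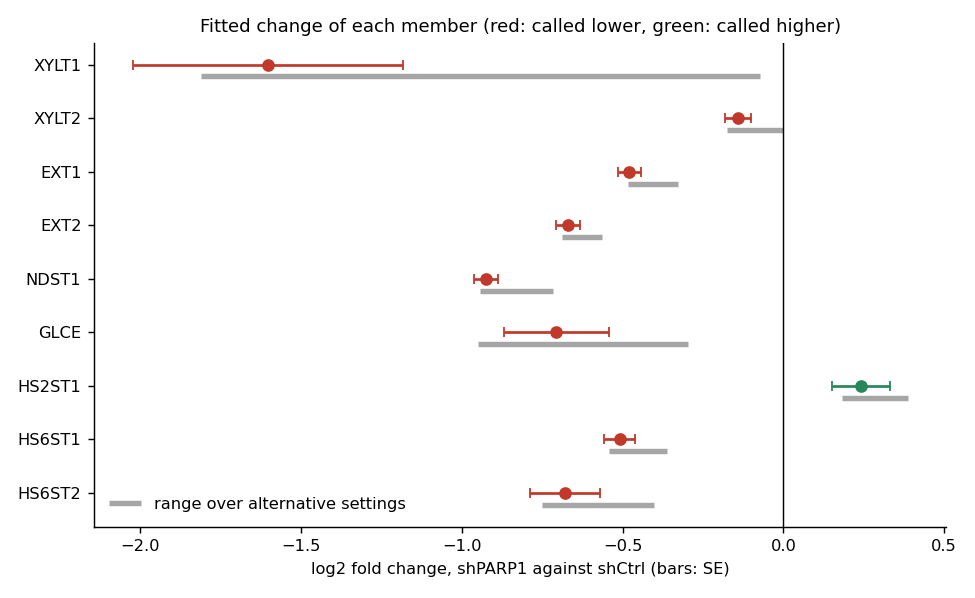
Log2 fold change of each member, shPARP1 against shCtrl, from the edgeR fit (points, with SE bars; red called lower, green called higher), above a grey bar for the range over the alternative settings. NDST1 stays between -0.94 and -0.72, and XYLT2 reaches -0.00 after the length and GC correction. The long bar of XYLT1 ends at -0.07 on the log2(FPKM + 1) scale, which compresses values near 0. XYLT1 was tested through its shCtrl libraries alone, so its red point is a description.

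Levels of different genes can be compared only per length, and for this the deposited FPKM values were used. In shPARP1 libraries the mean FPKM was 35.6 for XYLT2, 33.1 for NDST1, 32.9 for EXT2, 20.4 for EXT1 and 12.2 for HS6ST1. In shCtrl libraries it was 60.9 for NDST1, 50.7 for EXT2, 38.1 for XYLT2, 27.5 for EXT1 and 16.8 for HS6ST1. The well expressed members thus kept their order except that XYLT2, below NDST1 and EXT2 in shCtrl, stood above both in shPARP1. NDST1 and EXT2 overlapped in shPARP1, at 31.5 to 34.0 and 32.0 to 33.9 FPKM, and no other pair of neighbours in either order overlapped.

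Far lower in FPKM came the remaining 4 members. HS2ST1 averaged 1.88 FPKM in shPARP1 and 1.54 in shCtrl, and HS6ST2 averaged 1.43 FPKM in shPARP1 and 2.22 in shCtrl, so that these 2 sulfotransferases stood in opposite order in the 2 groups without overlap. GLCE averaged 0.643 FPKM in shPARP1 and 1.01 in shCtrl. XYLT1 was at 0.0233 FPKM in shPARP1 and 0.0767 in shCtrl, the lowest member in both groups.

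**Figure D3:**
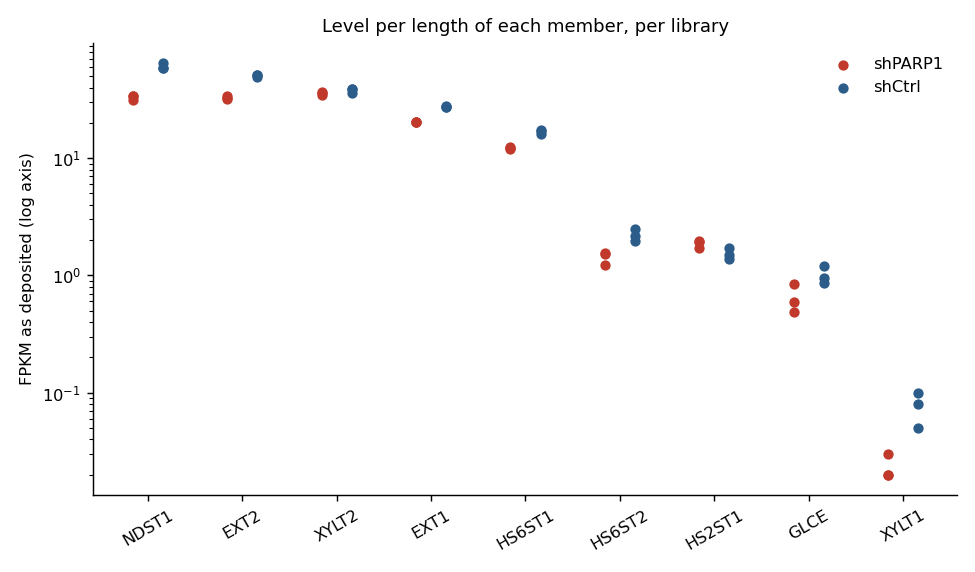
Deposited FPKM of each member in each library on a log axis, with members ordered by level and shPARP1 (red) left of shCtrl (blue). NDST1, EXT2, XYLT2, EXT1 and HS6ST1 lie above 10 FPKM in each library, and XYLT1 lies at or below 0.1 FPKM.

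Within the pairs of paralogs or subunits the FPKM ratio was compared between groups, for 3 ratios, since a ratio within a library needs no scaling factor. With 3 libraries per group the exact two-sided permutation test cannot give a p below 0.1. The EXT1 to EXT2 ratio was 0.618, 0.642 and 0.600 in shPARP1 libraries, against 0.542, 0.530 and 0.557 in shCtrl libraries. Each shPARP1 library had a higher ratio than each shCtrl library, a log2 difference of 0.19 (exact permutation p = 0.1, adjusted over the 3 ratios 0.15). The HS6ST1 to HS6ST2 ratio was 9.93, 8.03 and 7.91 in shPARP1 libraries, against 8.72, 6.94 and 7.34 in shCtrl libraries. These overlapped, and the log2 difference of 0.17 (exact permutation p = 0.4, adjusted 0.4) was 0.06 without shPARP1 replicate 1, 0.10 without shCtrl replicate 2 and 0.26 without shCtrl replicate 1. The XYLT1 to XYLT2 ratio differed by -1.59 on the log2 scale, a value that repeats the XYLT1 difference above and rests on XYLT1 FPKM of 0.02 to 0.1 with 2 decimals, so no p is given for it.

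Other genes of the pathway were taken from lists by role, and are described by counts and medians beside the all-gene values of 28.5% lower, 27.3% higher and a median log2 fold change of -0.01. The other linker enzymes, 8 listed and 7 tested, had 3 lower, 2 higher and 2 not called, with a median of -0.14. PXYLP1, the phosphatase that removes the xylose phosphate, averaged 3.80 ± 0.435 CPM in shPARP1 and 6.56 ± 0.260 in shCtrl (log2 fold change -0.79, edgeR adjusted p = 2.69e-06, SD, n = 3). FAM20B, the kinase that adds this phosphate, averaged 35.0 ± 1.54 CPM in shPARP1 and 42.7 ± 3.14 in shCtrl (log2 fold change -0.29), and B3GAT3, which adds the glucuronic acid that completes the linker, 83.4 ± 5.94 in shPARP1 and 92.2 ± 5.01 in shCtrl (-0.14). In the other direction, EXTL3, which commits a linker to heparan sulfate by adding the N-acetylglucosamine that EXT1 and EXT2 extend, averaged 95.6 ± 2.72 CPM in shPARP1 and 59.8 ± 2.09 in shCtrl (log2 fold change 0.68, edgeR adjusted p = 2.15e-19). B3GALT6, a galactosyltransferase of the linker, rose to 112 ± 7.24 CPM in shPARP1, against 94.6 ± 1.81 in shCtrl (log2 fold change 0.25). The initiating enzyme EXTL3 and the polymerases thus moved in opposite directions. EXTL1 was not tested, with at most 0.334 CPM in each library.

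Among the other N-deacetylase, 6-O- and 3-O-sulfotransferase paralogs, 6 of 10 were measured and 4 tested, with 1 lower, 1 higher and 2 not called (median -0.80). This median lies between the values of NDST3 and HS3ST1, the 2 not called. The list's summed CPM was higher in shPARP1 (130 to 133) than in shCtrl (115 to 121). HS3ST3A1, a 3-O-sulfotransferase, was the most abundant in CPM, at 130, 128 and 126 in shPARP1 libraries, against 109, 115 and 116 in shCtrl libraries. It rose by a log2 fold change of 0.17 (edgeR adjusted p = 0.000204). Its paralog HS3ST3B1 fell to 2.44 ± 0.241 CPM in shPARP1, against 4.84 ± 0.659 in shCtrl (log2 fold change -0.99, edgeR adjusted p = 8.82e-07, SD, n = 3). NDST3 and HS3ST1 stayed under 1 CPM in each library and were not called, HS6ST3 and HS3ST6 were not tested, and NDST4, HS3ST2, HS3ST4 and HS3ST5 were not analysed here. HS3ST3A1 and HS3ST3B1 share a near-identical catalytic domain, so that reads may have been split between them in the deposited counts. HS2ST1 and HS3ST3A1 were the tested sulfotransferases of heparan sulfate that were called higher.

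Sulfation needs the donor PAPS, and chain growth needs nucleotide sugars carried into the Golgi. Of 17 genes of this supply, all tested, 8 were lower, 1 was higher and 8 were not called, with a median log2 fold change of -0.18. SLC35D1, a Golgi and ER carrier of UDP sugars, averaged 1.92 ± 0.210 CPM in shPARP1 and 4.45 ± 0.554 in shCtrl (log2 fold change -1.21, edgeR adjusted p = 5.03e-08, SD, n = 3). UXS1, which makes the UDP-xylose that XYLT1 and XYLT2 use, had 82.6, 83.4 and 85.6 CPM in shPARP1 libraries, against 156, 155 and 155 CPM in shCtrl libraries (log2 fold change -0.89, edgeR adjusted p = 8.82e-27). The 2 groups of UXS1 values lay far apart relative to their spread. SLC35D2, another UDP sugar carrier, averaged 19.8 ± 1.10 CPM in shPARP1 and 35.5 ± 1.18 in shCtrl (log2 fold change -0.84). The sulfate transporter SLC26A2 rose to 8.53 ± 0.672 CPM in shPARP1, against 5.74 ± 0.526 in shCtrl (log2 fold change 0.57, edgeR adjusted p = 5.07e-05). Named after their values were seen, the PAPS synthases PAPSS1 and PAPSS2 and the Golgi PAPS carrier SLC35B2 had log2 fold changes of -0.41, -0.51 and -0.69, each called lower. SLC35B3, the other Golgi PAPS carrier, had a log2 fold change of -0.18 and was not called (edgeR adjusted p = 0.293).

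Chondroitin and dermatan sulfate chains start on the same linker. Of 16 genes listed for them 15 were tested, with 8 lower, 2 higher and 5 not called (median log2 fold change -0.21). After the length and GC correction, an alternative chosen after seeing the data, the counts were 4 lower and 5 higher. CHST13 averaged 0.585 ± 0.107 CPM in shPARP1 and 1.68 ± 0.315 in shCtrl, and CHSY3 0.364 ± 0.0723 in shPARP1 and 1.02 ± 0.226 in shCtrl, log2 fold changes of -1.51 and -1.47. CHSY3 passed the filter only with the help of shCtrl libraries, since shPARP1 replicate 2, with 9 reads, was under the cutoff of 0.359 CPM. It is among the 8 lower, and its fall is a description. CSGALNACT2, an enzyme that starts chondroitin sulfate chains, averaged 2.27 ± 0.320 CPM in shPARP1 and 3.26 ± 0.408 in shCtrl (log2 fold change -0.53). CHST14, the dermatan 4-O-sulfotransferase, rose to 82.0 ± 1.42 CPM in shPARP1, against 45.5 ± 3.09 in shCtrl (log2 fold change 0.85, edgeR adjusted p = 6.87e-22), and CHST3 had 149 ± 3.43 CPM in shPARP1 and 137 ± 5.97 in shCtrl (0.12; SD, n = 3). CSGALNACT1 was not tested.

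The enzymes that take heparan sulfate apart in the lysosome were measured for all 8 genes listed, with 6 lower, 1 higher and 1 not called (median log2 fold change -0.68). HGSNAT, the acetyltransferase of this pathway, had 21.6, 21.1 and 18.1 CPM in shPARP1 libraries, against 42.2, 39.3 and 39.7 CPM in shCtrl libraries. IDUA, the iduronidase, averaged 6.90 ± 0.240 CPM in shPARP1 and 12.8 ± 0.974 in shCtrl (SD, n = 3). The log2 fold changes were -0.99 for HGSNAT and -0.89 for IDUA, beside -0.92 for NDST1. IDS, the iduronate sulfatase, rose to 39.7 ± 0.421 CPM in shPARP1, against 35.0 ± 0.694 in shCtrl (log2 fold change 0.18, edgeR adjusted p = 0.00717), with the caveat that a near-identical pseudogene lies beside it. Outside the cell, the heparanase HPSE had 27.0, 30.4 and 29.2 CPM in shPARP1 libraries, against 43.0, 41.2 and 43.5 CPM in shCtrl libraries (log2 fold change -0.56, edgeR adjusted p = 1.91e-11). The sulfatases SULF1 and SULF2, which trim 6-O-sulfate from finished chains, had at most 1 read in each library and were not tested, and HPSE2 was not analysed here.

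The core proteins that carry the chains were tested for 11 of 12 genes, with 10 lower, 1 higher and a median log2 fold change of -0.70. GPC3, SDC3 and HSPG2 had the lowest log2 fold changes, -1.58 for GPC3 and -0.97 for HSPG2, with SDC3 between them. GPC3 was low, with 14 to 24 reads in shPARP1 libraries and 38 to 50 in shCtrl libraries (means of 0.595 and 1.80 CPM). HSPG2 averaged 374 CPM in shPARP1 and 736 in shCtrl. SDC4 rose by a log2 fold change of 1.61 and averaged 723 ± 26.5 CPM in shPARP1 and 237 ± 4.12 in shCtrl (SD, n = 3). GPC5 was not tested.

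**Figure D4:**
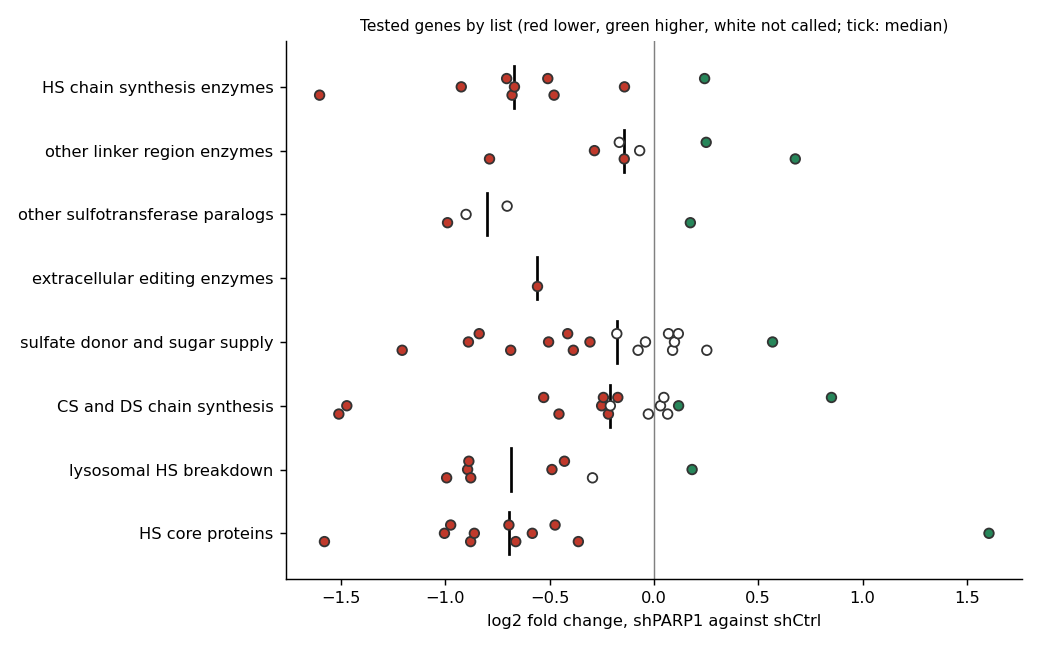
Log2 fold change, shPARP1 against shCtrl, of each tested gene in the lists of heparan sulfate (HS) and chondroitin and dermatan sulfate (CS and DS) genes; red points were called lower, green higher and white not called, and the black tick is the list's median. The medians run from -0.80 for the other sulfotransferase paralogs (4 genes) to -0.14 for the other linker enzymes (7 genes), and SDC4 is the highest point at 1.61. The median of -0.80 lies between NDST3 and HS3ST1, both under 1 CPM and not called.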

How the data were processed

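RNA-seq of 3 shPARP1 and 3 shCtrl libraries of HK-2 cells was analysed. Per the labels' protocols, polyadenylated RNA went through a stranded kit and 150 nt paired-end sequencing. The authors deposited whole-number read counts per gene, not normalized, and FPKM values with 2 decimals. The build GRCh38 and the tools bcl2fastq, TopHat2 and edgeR are named per the submitters' processing notes. What counted the reads, with which strand setting and annotation release, and the length behind FPKM were not given in the sources used here, so reads of overlapping or near-identical genes may be misassigned, such as those of HS6ST1 and its processed pseudogene.

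The count table was fitted with edgeR 4.0.16 under R 4.3.3: filterByExpr with a minimum count of 10, TMM scaling, robust quasi-likelihood F tests on all 6 libraries, Benjamini-Hochberg adjustment over all 16040 tested genes, and calls at an adjusted p under 0.05 with no fold minimum. The SE is the absolute log2 fold change divided by the square root of F. CPM are TMM-scaled. Coordinates and exon overlaps came from GENCODE 29, which matched 97.4% of genes by Ensembl identifier. A symbol on several rows was resolved by its identifier. The members and lists were chosen with earlier results of these data known. All members were named, and from each list up to 3 called genes with the largest rise and up to 3 with the largest fall. Some genes that this rule or the lists took are not reported here by name. Alternatives were other scalings and filters, DESeq2 1.42.0, limma 3.58.1 (voom, and trend on log2 FPKM with pseudocounts of 1 and 0.1), a length correction, thinned counts, a replicate block, a 2-fold minimum, leaving out each library and, added after seeing the data, a length and GC correction. Libraries of 1 group differed by more than counting noise (chi-square per degree of freedom 2.44 to 4.35), so none was treated as a copy of another; this does not show that they were separate cultures.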

Additional observations from a re-analysis of the deposited data

How the results depend on the processing

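No member's log2 fold change turned its sign in any alternative run. The all-gene balance of 4566 lower and 4371 higher calls turned to 4143 and 4838 with the length and GC correction and to 4272 and 4684 with library totals alone, with all-gene medians of 0.03 and 0.02 beside -0.01, and the chondroitin and dermatan sulfate list turned to 4 lower and 5 higher with that correction. Higher calls also outnumbered lower ones on both FPKM scales, with the length correction and without shCtrl replicate 2 (4297 lower, 4349 higher). The cause was not tested. With a 2-fold minimum, 653 of all tested genes were called lower and 386 higher, and of the members 1 lower and 0 higher; that 1 is XYLT1, which was tested through its shCtrl libraries alone. The number of members called higher was also 0 with limma-trend on log2(FPKM + 1) and on log2(FPKM + 0.1), and between 0 and 1 on leaving out each library in turn. The member concerned was HS2ST1. XYLT2 lost its call on both FPKM scales (adjusted p = 0.0854 and 0.0845), with the length correction (log2 fold change -0.07, adjusted p = 0.137) and with the length and GC correction. The log2 fold change of XYLT1 was -0.07 on the log2(FPKM + 1) scale. XYLT1 could not be tested under the stricter filter. EXT1, EXT2, NDST1, GLCE, HS6ST1 and HS6ST2 kept direction and call in all 19 alternatives other than the 2-fold minimum.

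Whether the replicate numbers pair the libraries was not settled. Deviations from the group means correlated between same-numbered libraries at 0.06, -0.01 and 0.05. With 3 libraries per group, such low correlations cannot exclude a pairing. With the replicate block, 4617 genes were called lower and 4443 higher, against 4566 and 4371 without it. The members' calls were 8 lower and 1 higher, and among the 8 XYLT1, tested through its shCtrl libraries alone, is a description. Not every library correlated best with its own number. Counts limit XYLT1, and its FPKM has few digits. All 3 shPARP1 libraries were deeper than the 3 shCtrl libraries.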

Other observations

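NDST2 encodes the paralog of NDST1 (chromosome 10, 73801911 to 73811798, minus strand of GRCh38) and was not analysed here. In GENCODE 29, 82.9% of its exon bases are shared with a protein-coding gene on the same strand, ENSG00000272916, listed in the deposited table as RP11-574K11.31 and chosen here after its values were seen. That gene had 589, 612 and 528 reads in shPARP1 libraries, against 813, 801 and 773 reads in shCtrl libraries, or 18.5 ± 1.17 CPM in shPARP1 and 31.5 ± 2.19 CPM in shCtrl (SD, n = 3). All 3 knockdown libraries were below the controls, and the fitted difference was -0.77 on the log2 scale (SE 0.07, adjusted p = 1.69e-13 by edgeR's quasi-likelihood test). How many of these reads came from NDST2 transcripts was not tested, so no value is given for NDST2.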
